A study of Mus musculus with 18 samples.

Results

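The 31 genes described here encode the steps that carry pyruvate into the mitochondrial citric acid (TCA) cycle, the enzymes of the cycle, and the enzymes that link its malate, isocitrate and oxaloacetate pools to the cytosol. They were taken by name from 34150 genes measured in every library, and all 31 averaged at least 0.5 FPKM (fragments per kilobase of exon, scaled to library depth) and so entered the tests. Total RNA of mouse heart, depleted of ribosomal RNA, was sequenced in 6 control, 6 MI and 6 HXP libraries. MI stands for myocardial infarction, the death of heart muscle after its blood supply is cut. The series title sets the HXP treatment in mice with acute infarction, and what HXP abbreviates is not spelled out. The labels name no strain, sex, age, genotype, dose or time after infarction, and neither the part of the heart taken, what the control mice received, nor whether each HXP mouse was infarcted. The labels do not say that each library is a separate mouse, so the p-values speak for the spread among these libraries, which may be technical.

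As background, pyruvate enters mitochondria through the carrier Mpc1-Mpc2 and is oxidised to acetyl-CoA by the pyruvate dehydrogenase (PDH) complex, the gate between glycolysis and the TCA cycle. PDH kinases (Pdk) switch the complex off by phosphorylation, and PDH phosphatases (Pdp) switch it back on. The adult heart is packed with mitochondria, draws most of its energy from fatty acids, and expresses most of these genes at high levels in its muscle cells.

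Depth recovered from the steps of the FPKM values was 75.8 to 81.1 M reads per library, so counting error is small beside the spread between libraries. The heart label was checked by muscle markers, which stood at 19620 to 21253 summed FPKM of 20 cardiomyocyte genes in control libraries, 15969 to 21134 in MI libraries and 14209 to 25280 in HXP libraries. Several libraries stood apart. MI 5 held lung epithelial transcripts (Sftpc at 970 FPKM against at most 0.216 in the 17 others), and MI 4 held skeletal muscle transcripts (Mylpf at 24.3 FPKM against 0.637 to 2.37 in the other MI libraries). Adipocyte transcripts were high in HXP 3 and HXP 2 (Adipoq at 54.8 and 44.0 FPKM) and, at 8.96 to 25.9 FPKM, in MI 1, MI 3 and MI 4, against at most 0.222 in control. In HXP 5 and HXP 6 the alpha-globin Hba-a1 was at 212 and 180 FPKM beside 1647 and 2451 FPKM of its partner Hbb-bs, whereas the 16 other libraries had like levels of both. Library numbers in the file headers formed 3 runs, of which the last held 3 control, 5 MI and 2 HXP libraries. The others held 2 control and 1 MI library, and 1 control and 4 HXP libraries, too few for a comparison of their own.

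In MI hearts the genes of this pathway were lower than in control for the most part, while most other genes were higher on the FPKM scale. Of the 31 genes 10 fell and 1 rose in the comparison of MI with control by limma at a Benjamini-Hochberg adjusted p below 0.05, where 3.21% of all 13710 tested genes were called lower and 40.1% higher. The 10 that fell were Mpc1, Dlat, Dld, Pdk2, Pdp1, Pdp2, Suclg1, Suclg2, Sucla2 and Fh1, and the 1 that rose was Pdk3. The median difference in log2(FPKM + 1) of the 31 genes was -0.29, beside 0.27 for all tested genes. The median of all genes depended on scaling. It was 0.10 with scaling to non-mitochondrial reads, 0.0029 with median ratios and -0.07 with quantile normalization. Genes called higher were then 22.6%, 17.5% and 13.2% of those tested, and the median of the 31 was -0.52, -0.65 and -0.55. The fitted difference was below 0 for 27 of the 31, and the 4 above 0 were Pdk3, Pcx, Idh1 and Pdk4, while 19.0% of all tested genes were below 0. In 4 genes (Dld, Suclg1, Suclg2 and Sucla2) every MI library was below every control library, as were 1.39% of all tested genes. For Pdk3 every MI library was above every control library, as for 27.9% of all tested genes.

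RNA of cell type markers also differed between MI and control. All 10 fibroblast and matrix markers and all 8 macrophage and monocyte markers were called higher in MI, and 3 of 20 cardiomyocyte markers lower, with a cardiomyocyte median of -0.10 on the log2 scale. Summed matrix markers ran from 179 to 276 FPKM over the controls, from 684 to 3979 over the MI libraries and from 135 to 3573 over the HXP libraries, and none of these markers was at 0 throughout. Fewer muscle cells and less RNA of a gene per muscle cell cannot be told apart in whole tissue. With each library scaled to its cardiomyocyte markers, 4 of the 31 genes (Pdk2, Pdp2, Suclg2 and Sucla2) still passed as lower and Pdk3 as higher, beside 1.32% of all tested genes lower and 40.9% higher. The median of the 31 was then -0.13 and that of all genes 0.39.

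The count of 10 lower genes depended on which libraries were included. It was 3 (Mpc1, Pdp2 and Suclg2) without MI 5 and 5 without control 3, control 5, MI 1 or MI 2. It was 6 without control 2, control 4 or control 6, 7 without control 1 and 8 without MI 3. Calls over all genes dropped too, to 0.926% lower and 18.4% higher without MI 5 and to 1.68% to 2.36% lower without the others named. The count was 10 without MI 4 (3.15% of all tested genes lower) and 15 without MI 6 (4.49%) or without HXP 3 (4.34%). Without both MI 4 and MI 5, limma called 0 of the 31 and 0 of all tested genes, with 10 of the 31 and 5998 of all genes at an unadjusted p below 0.05 and a smallest adjusted p of 0.0555. In the last run of library numbers alone 0 of the 31 were called, with 13 at an unadjusted p below 0.05, beside 5 lower, 74 higher and 4866 at an unadjusted p below 0.05 of all 13710 genes, and the median of the 31 was -0.24 beside 0.21 for all genes. Scaling by median ratios, which brings the median of all genes near 0, called 23 of the 31 lower and 1 higher beside 2068 lower and 2395 higher genes in all. Each of the 11 called genes kept its sign under every one of the 36 other settings tried in which it could be tested.

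**Figure D1:**
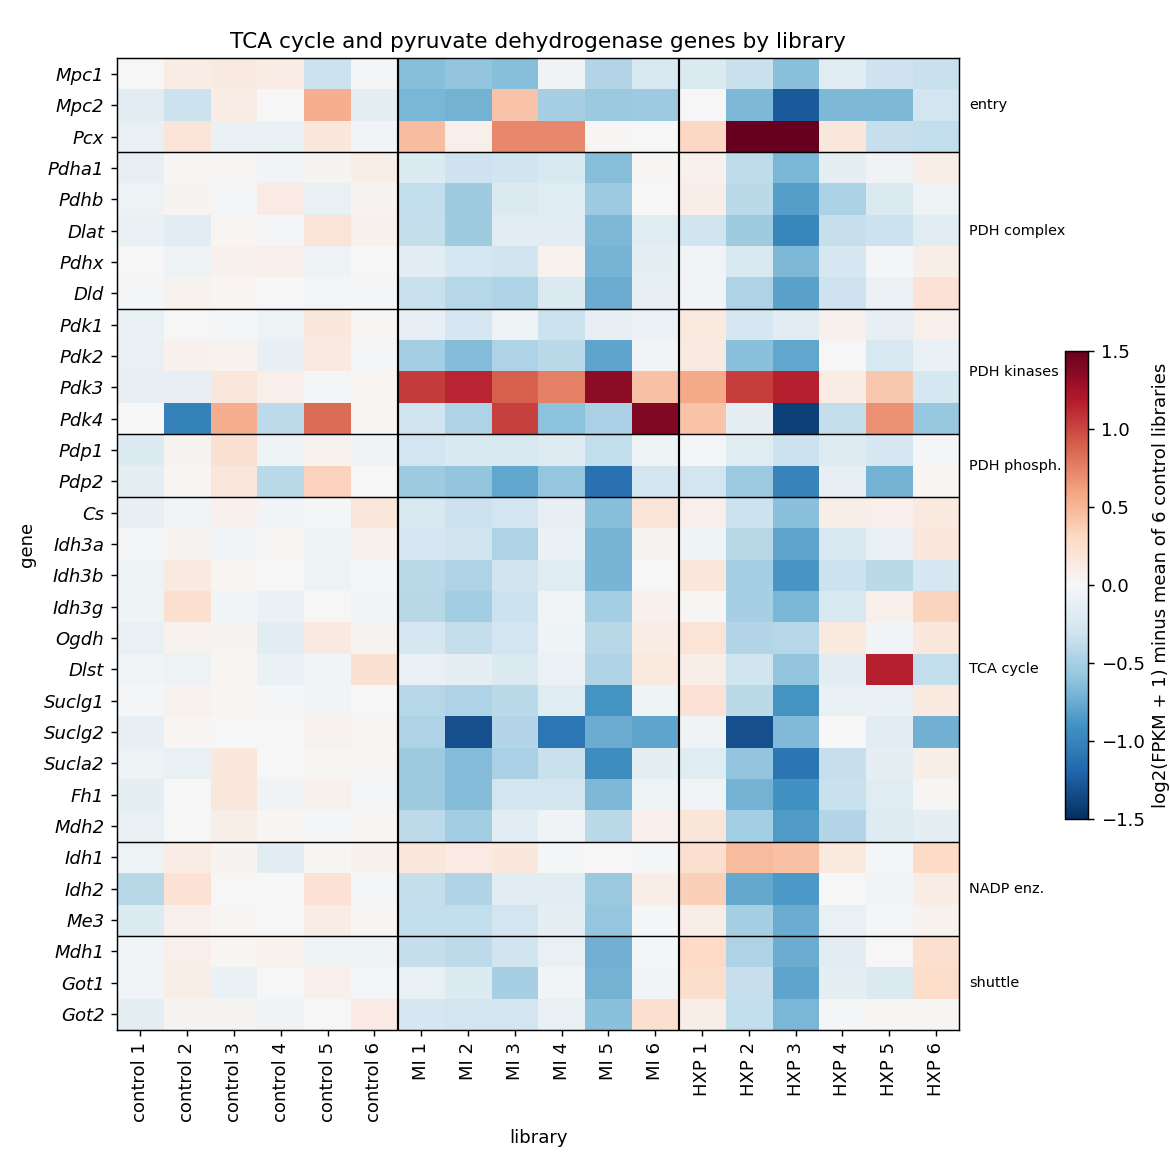
Level of each of the 31 genes (vertical axis, in blocks by role) in each of the 18 libraries (horizontal axis), as log2(FPKM + 1) minus the mean of the 6 control libraries, red for higher and blue for lower. Colours stop at 1.5 in either direction, which Pcx in HXP 2 and HXP 3 exceeds. MI 5 and HXP 3 are the bluest columns, MI 6, HXP 1 and HXP 6 stay near 0 in most rows, and the Pdk3 row is red across MI.

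The 3 genes with the largest differences between MI and control in either direction were Pdk3, Suclg2 and Pdp2, and their promoters are shown for that reason. Each line gives the 300 bases from 250 before to 50 after the start of transcription, from RefSeq on GRCm38.p6, 5′ to 3′ on the gene's strand, with CG dinucleotides in capitals. Pdk3 lies at chrX:93832101-93832400 (minus strand), Suclg2 at chr6:95718797-95719096 (minus strand) and Pdp2 at chr8:104591222-104591521 (plus strand).
Pdk3: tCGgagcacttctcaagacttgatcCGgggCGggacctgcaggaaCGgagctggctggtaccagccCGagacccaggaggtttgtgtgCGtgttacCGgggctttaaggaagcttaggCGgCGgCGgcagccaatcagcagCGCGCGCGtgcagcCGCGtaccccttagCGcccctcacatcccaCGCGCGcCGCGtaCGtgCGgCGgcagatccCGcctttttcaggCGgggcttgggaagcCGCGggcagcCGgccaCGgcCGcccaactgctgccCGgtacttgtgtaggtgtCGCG
Suclg2: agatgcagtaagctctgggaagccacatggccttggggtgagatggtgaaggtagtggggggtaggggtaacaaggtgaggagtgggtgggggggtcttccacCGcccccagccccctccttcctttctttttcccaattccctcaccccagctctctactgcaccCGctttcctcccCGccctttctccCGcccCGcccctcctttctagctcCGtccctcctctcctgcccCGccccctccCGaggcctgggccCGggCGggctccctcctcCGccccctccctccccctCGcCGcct
Pdp2: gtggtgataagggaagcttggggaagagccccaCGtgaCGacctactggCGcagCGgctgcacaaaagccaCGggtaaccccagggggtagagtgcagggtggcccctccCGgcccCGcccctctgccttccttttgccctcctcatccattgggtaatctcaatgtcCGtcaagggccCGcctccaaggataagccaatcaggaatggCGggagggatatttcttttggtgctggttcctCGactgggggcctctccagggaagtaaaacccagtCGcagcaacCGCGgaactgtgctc
The Pdk3 window held 35 CG dinucleotides, a number that 6.95% of all 32851 promoters reach. Suclg2 had 13 and Pdp2 had 14, which 37.9% and 36.3% of all promoters reach. Of the 31 genes 29 had a promoter in the table, with 39 windows in all, and their median was 21 CG dinucleotides beside 7 over all promoters. The 4 motifs below were searched on both strands of the 39 windows. AAGGTCA, the motif of estrogen-related receptors, was in 2 windows (5.13% beside 4.72% of all promoters), those of Got1 and Ogdh. CCGGAAG, the core of ETS factor sites, was in 4 (10.3% beside 8.86%), those of Dlst, Idh3b, Idh3g and Mpc1. GCATGCGC, the core of NRF1 sites, was in 2 windows of Ogdh (5.13% beside 2.71%), and TATAAA was in 1, of Got2 (2.56% beside 13.6%). These shares count windows and not genes, and some windows of Ogdh overlap, so 1 site can count more than once. None of the 4 motifs was in the 3 printed windows. A match describes letters only.

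Pyruvate entry is served by the carrier subunits Mpc1 and Mpc2 and by Pcx, pyruvate carboxylase, which refills the cycle with oxaloacetate. Mpc1 (ENSMUSG00000023861, GRCm38 chr17:8282904-8297661) ran from 25.1 to 34.7 FPKM with a median of 32.9 in control, from 19.9 to 30.5 with a median of 21.9 in MI, and from 20.1 to 27.8 with a median of 25.2 in HXP. In all, 4 of the 6 MI libraries were below every control library, and MI 4 and MI 6 overlapped with control. Mpc1 fell in MI by 0.43 on the log2 scale (SE 0.11, adjusted p = 0.0150). Mpc2 ran from 13.0 to 24.7 FPKM (median 15.7) in control, from 9.74 to 22.6 (median 10.98) in MI and from 6.36 to 16.5 (median 10.02) in HXP. In Mpc2, 5 MI libraries were below every control, but MI 3 was above all control libraries except control 5, and the difference of -0.43 did not pass (SE 0.21, adjusted p = 0.103). The carrier works as a heterodimer of both subunits, and the ratio of Mpc1 to Mpc2 was 1.01 in control 5 and 0.881 in MI 3, against 1.64 to 3.16 in the 16 others.

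Pcx was at 6.19 ± 0.717 FPKM (SD, n = 6) in control, 8.24 ± 2.23 in MI and 11.96 ± 9.30 in HXP, with a difference between MI and control of 0.33 (SE 0.33, adjusted p = 0.410). The wide HXP spread came from HXP 2 and HXP 3, at 23.9 and 23.8 FPKM, while HXP 1 and HXP 4 to 6 ran from 4.55 to 7.86. Adipocytes are known to express Pcx strongly, and HXP 2 and HXP 3 held the most adipocyte transcripts of all libraries. Within MI the order differed: Pcx was at 10.8 FPKM in MI 3 and MI 4 and 8.86 in MI 1, while Adipoq was at 25.9, 8.96 and 14.9 FPKM in these. The part of adipocyte RNA in the Pcx level was not tested.

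The PDH complex joins the E1 subunits Pdha1 and Pdhb, the E2 core Dlat, the E3-binding protein Pdhx and the E3 subunit Dld, which the alpha-ketoglutarate dehydrogenase complex also uses. All 5 had a fitted difference below 0 in MI, from -0.39 to -0.25, and 2 of them passed. Dlat (ENSMUSG00000000168, chr9:50634633-50659780) ran from 63.0 to 81.2 FPKM (median 71.2) in control, from 44.0 to 63.7 (median 58.7) in MI and from 35.6 to 63.7 (median 56.2) in HXP. MI 4 alone among the MI libraries reached into the control range, and HXP 6 alone among the HXP libraries. Dlat fell in MI by 0.35 (SE 0.13, adjusted p = 0.0385). Dld (ENSMUSG00000020664, chr12:31331277-31351453) was at 127 ± 2.96 FPKM in control, 97.8 ± 14.4 in MI and 109.6 ± 26.6 in HXP, and fell in MI by 0.39 (SE 0.14, adjusted p = 0.0363) with no overlap between MI and control.

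Pdha1, the X-linked catalytic subunit that the kinases phosphorylate, ran from 259.8 to 302 FPKM (median 288) in control, from 182 to 286 (median 237) in MI and from 177 to 305 (median 265) in HXP. Its difference of -0.28 between MI and control (SE 0.13) had an adjusted p of 0.0807. Pdhb was at 164 ± 9.63, 134 ± 20 and 134 ± 29.7 FPKM in control, MI and HXP (difference -0.31 in MI, adjusted p = 0.0690), and Pdhx at 28.3 ± 1.32, 23.9 ± 4.08 and 25.1 ± 4.60 FPKM (difference -0.25, adjusted p = 0.110). In all 5 genes of the complex MI 5 was the lowest of the MI libraries and HXP 3 the lowest of the HXP libraries. The ratio of Pdha1 to Pdhb stayed between 1.55 and 2.18 in all 18 libraries.

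The PDH kinases did not move together. Pdk3 (ENSMUSG00000035232, chrX:93764607-93832201), a minor isoform in heart, ran from 0.492 to 0.838 FPKM (median 0.630) in control, from 1.21 to 3.12 (median 2.21) in MI and from 0.361 to 2.65 (median 1.28) in HXP. No MI library overlapped with control, whereas HXP 6 was below every control and HXP 4 within the control range. Pdk3 rose in MI by 0.94 on the log2(FPKM + 1) scale (SE 0.20, adjusted p = 0.0139), which compresses changes near 1 FPKM. The mean FPKM was 3.43 times that of control. Pdk3 ranked with the 40.1% of genes called higher in MI, and its 6 highest values were in MI 1, MI 2, MI 3, MI 5, HXP 2 and HXP 3. These 6 libraries also had the highest means of the 8 macrophage and monocyte markers (4.82 to 5.33 on the log2 scale against 2.55 to 4.24 in the 12 others). They had the highest means of the 10 fibroblast and matrix markers as well (6.85 to 7.90 against 2.77 to 6.84). The part of other cell types in the Pdk3 level was not tested.

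Pdk2 (ENSMUSG00000038967, chr11:95026258-95041354), the most abundant PDH kinase in these hearts per length of transcript, ran from 111 to 132 FPKM (median 122) in control, from 69.1 to 117 (median 85.9) in MI and from 69.8 to 132 (median 107) in HXP. In Pdk2, 5 of the 6 MI libraries were below every control, and MI 6 was inside the control range. Pdk2 fell in MI by 0.48 (SE 0.15, adjusted p = 0.0221). Pdk1, a target of hypoxia-inducible factor, ran from 20.3 to 24.5 FPKM (median 21.7) in control, from 17.2 to 20.6 (median 19.9) in MI and from 18.2 to 24.2 (median 21.3) in HXP, a difference in MI of -0.16 (SE 0.08, adjusted p = 0.102).

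Pdk4, the isoform induced by fasting and fatty acids, varied most within groups. It ran from 27.0 to 100.4 FPKM (median 56.1) in control, from 36.0 to 147 (median 42.6) in MI and from 20.48 to 90.4 (median 46.9) in HXP. MI 6 and MI 3, at 147 and 114 FPKM, were the highest of all 18 libraries, and the 4 other MI libraries lay between 36.0 and 45.2, inside the control range. The difference between MI and control was 0.09 with an SE of 0.41 (adjusted p = 0.861), so a change of either sign was not detectable within this spread. By FPKM, Pdk2 made up 51.3% to 72.0% of the summed PDH kinase level in control, Pdk4 15.4% to 39.0%, Pdk1 9.39% to 12.4% and Pdk3 0.231% to 0.415%. In MI 3 and MI 6 Pdk4 made up 51.0% and 51.6%, above Pdk2 at 38.9% and 40.9%, an order seen in none of the 16 other libraries. The share of Pdk3 reached 2.37% in MI 5 and 2.36% in HXP 3.

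**Figure D2:**
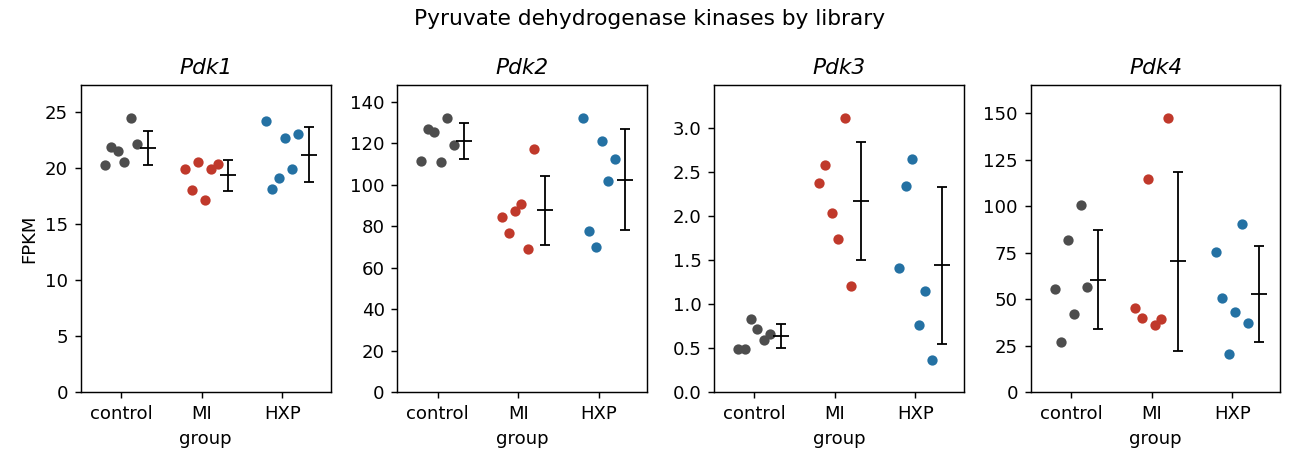
FPKM (vertical axes, each from 0) of the 4 PDH kinase genes in each control, MI and HXP library (points), with the mean and SD of 6 libraries beside them (horizontal and vertical bars). Every MI point of Pdk3 lies above every control point, 5 of 6 MI points of Pdk2 lie below every control point, and Pdk4 spreads from 20.48 to 147 FPKM across overlapping groups.

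Both PDH phosphatases fell in MI. Pdp2 (ENSMUSG00000048371, chr8:104591451-104599026) ran from 4.90 to 8.96 FPKM (median 6.91) in control, from 2.59 to 5.48 (median 4.22) in MI and from 2.91 to 6.997 (median 4.90) in HXP. Only MI 6 among the MI libraries was above the lowest control library. Pdp2 fell by 0.65 (SE 0.17, adjusted p = 0.0154), with a control mean 1.70 times the MI mean. Pdp1, the calcium-stimulated phosphatase (ENSMUSG00000049225, chr4:11958184-11966452), was at 10.3 ± 1.14 FPKM in control, 8.66 ± 0.696 in MI and 9.11 ± 0.870 in HXP and fell in MI by 0.23 (SE 0.08, adjusted p = 0.0343). Among other settings, Pdp1 did not pass with scaling to cardiomyocyte markers, with the replicate block or without MI 5. The ratio of Pdp2 to Pdp1 was 0.669 ± 0.108 in control, 0.467 ± 0.0821 in MI and 0.536 ± 0.133 in HXP. Summed phosphatase level ran from 14.7 to 20.02 FPKM in control and from 10.4 to 15.3 in MI, where only MI 6 reached the control range. Summed kinase level ran from 174 to 258 FPKM in control and from 131 to 286 in MI, which took in the whole control range.

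Among the 11 TCA cycle enzymes all fitted differences between MI and control were below 0, from -0.81 to -0.15, and 4 passed. Of the 4, 3 make up succinyl-CoA synthetase, the only step of the cycle that makes a nucleotide triphosphate directly. Its alpha subunit Suclg1 pairs with either of a pair of beta subunits, Suclg2 for GTP or Sucla2 for ATP. Suclg2 (ENSMUSG00000061838, chr6:95473009-95718800) ran from 27.4 to 30.8 FPKM (median 30.2) in control, from 11.4 to 21.8 (median 17.0) in MI and from 11.3 to 29.9 (median 22.4) in HXP. Every MI library was below every control library, whereas HXP 1 and HXP 4 were at 28.7 and 29.9, inside the control range. Suclg2 fell in MI by 0.81 (SE 0.20, adjusted p = 0.0143), the largest fall among the 31 genes, with a control mean 1.75 times the MI mean.

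Sucla2 (ENSMUSG00000022110, chr14:73525319-73596142) ran from 111 to 133 FPKM (median 120.1) in control, from 62.3 to 109 (median 84.0) in MI and from 55.3 to 127 (median 99.6) in HXP. It fell in MI by 0.51 (SE 0.16, adjusted p = 0.0245), with MI 6 closest to control. Suclg1 (ENSMUSG00000052738, chr6:73248382-73276911) ran from 59.0 to 62.6 FPKM (median 60.2) in control, from 31.9 to 57.6 (median 45.0) in MI and from 32.1 to 70.5 (median 56.2) in HXP. It fell in MI by 0.41 (SE 0.16, adjusted p = 0.0499), just under the threshold, and passed in 14 of the 36 other settings. Of the other genes called lower, Dlat and Fh1 passed in 22 of the 36 and Dld in 21.

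The beta subunits did not keep a fixed proportion across libraries. The ratio of Suclg2 to Sucla2 was 0.225 to 0.274 in the 6 control libraries. It was 0.150, 0.143 and 0.153 in MI 2, MI 4 and MI 6, and 0.144 and 0.140 in HXP 2 and HXP 6. The other MI and HXP libraries, MI 1, MI 3, MI 5, HXP 1 and HXP 3 to 5, lay between 0.244 and 0.335. No library fell between 0.153 and 0.225. MI 2, whose profile over all genes was closest to that of MI 1, had 11.4 FPKM of Suclg2 where MI 1 had 21.3. The gap was seen after the values were known and is given without a test.

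**Figure D3:**
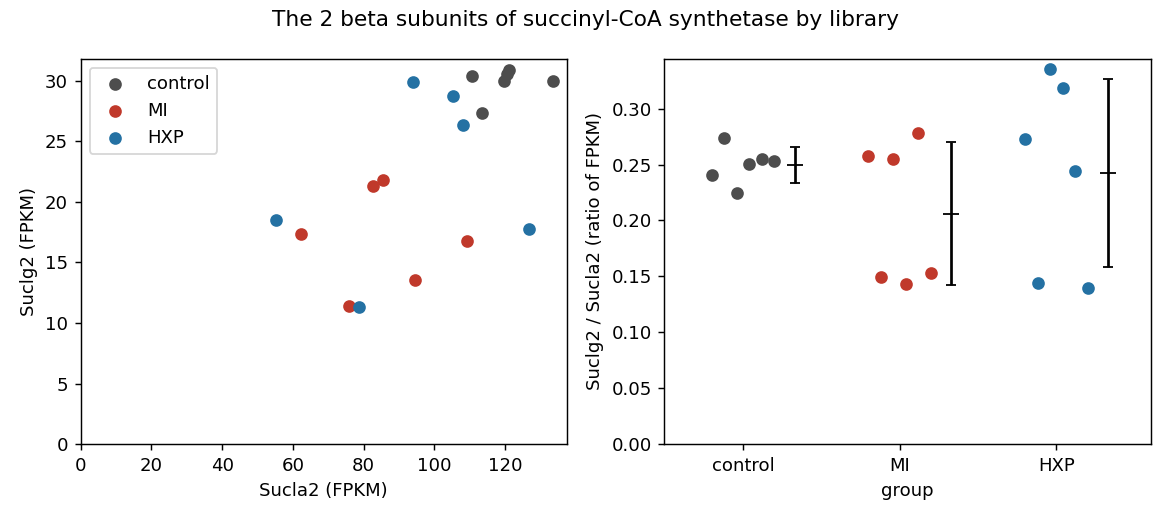
Left, Suclg2 against Sucla2 in FPKM, with 1 point per library (grey control, red MI, blue HXP). Right, their ratio in each library by group, with the mean and SD of 6 libraries beside the points. The 5 libraries, 3 MI and 2 HXP, lie at ratios of 0.140 to 0.153, below all others at 0.225 to 0.335.

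Fh1, fumarate hydratase (ENSMUSG00000026526, chr1:175600374-175625635), was at 105 ± 8.22 FPKM in control, 79.1 ± 13.4 in MI and 83.6 ± 20.6 in HXP and fell in MI by 0.41 (SE 0.15, adjusted p = 0.0360). Only MI 6 reached the control range. Citrate synthase, Cs, which opens the cycle and is a common measure of mitochondrial content, ran from 168 to 205 FPKM (median 178) in control, from 116 to 208 (median 152) in MI and from 117 to 203 (median 192) in HXP. MI 6 was above every control library and the 5 other MI libraries below, and the difference of -0.24 did not pass (SE 0.14, adjusted p = 0.171).

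The NAD-dependent isocitrate dehydrogenase, a rate-limiting step of the cycle, is built from Idh3a, Idh3b and Idh3g. Idh3b ran from 159 to 183 FPKM (median 166) in control, from 103 to 167 (median 131) in MI and from 90.4 to 188 (median 129.6) in HXP. Its difference of -0.34 in MI (SE 0.14) had an adjusted p of 0.0572, the closest to the threshold among the genes that did not pass. Idh3a and Idh3g, at control means of 106 and 81.97 FPKM, both differed by -0.29 (adjusted p = 0.0935 and 0.124). Malate dehydrogenase Mdh2, at 256 ± 11.2 FPKM in control and 218 ± 36.1 in MI, differed by -0.24 (adjusted p = 0.166).

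The alpha-ketoglutarate dehydrogenase complex pairs the E1 subunit Ogdh with the E2 subunit Dlst. Ogdh was at 317 ± 23.5, 275 ± 39.4 and 307 ± 59.7 FPKM in control, MI and HXP (difference -0.21 in MI, adjusted p = 0.170). Dlst was at 19.9 ± 1.86 and 18.005 ± 2.53 FPKM in control and MI (difference -0.15, adjusted p = 0.577). In HXP 5 Dlst was at 45.7 FPKM, against 12.8 to 23.5 in the 17 other libraries, and the ratio of Ogdh to Dlst was 6.70 there and 13.8 to 23.3 elsewhere. HXP 5 is also 1 of the 2 libraries in which the globins Hba-a1 and Hbb-bs differed.

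The NADP-linked enzymes did not pass in MI. Idh2, the mitochondrial isocitrate dehydrogenase that supplies NADPH, was at 425 ± 64.3 FPKM in control, 354 ± 60.4 in MI and 383 ± 121 in HXP (difference -0.26 in MI, adjusted p = 0.257). Me3, the mitochondrial NADP malic enzyme, was at 4.33 ± 0.388, 3.36 ± 0.590 and 3.72 ± 1.02 FPKM (difference -0.30, adjusted p = 0.0779). Idh1, the cytosolic isocitrate dehydrogenase, stood apart from its mitochondrial relatives in sign. It ran from 16.5 to 20.04 FPKM (median 18.8) in control, from 18.03 to 20.8 (median 19.2) in MI and from 18.1 to 26.1 (median 22.5) in HXP. The difference between MI and control was 0.06 (SE 0.09, adjusted p = 0.543), and it turned to -0.29 and passed when libraries were scaled by median ratios (adjusted p = 0.0411, in a range of 0.0411 to 0.772 over all settings). The ratio of Idh2 to Idh1 was 18.2 to 26.2 in control and 15.3 to 25.0 in MI, and it was lowest in HXP 2 and HXP 3, at 9.46 and 9.17.

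The malate-aspartate shuttle, which moves the reducing equivalents of glycolysis into mitochondria, uses Mdh1 and Got1 in the cytosol and Mdh2 and Got2 inside. Mdh1, the most abundant of the 31 transcripts per length, was at 590 ± 25.4 FPKM in control, 478 ± 77.9 in MI and 553 ± 148 in HXP (difference -0.32 in MI, adjusted p = 0.103). Got1 was at 218 ± 11.3, 184 ± 32.9 and 202 ± 54.2 FPKM (difference -0.27, adjusted p = 0.176) and Got2 at 182 ± 11.1, 158 ± 31.9 and 166 ± 32.4 FPKM (difference -0.22, adjusted p = 0.203). None of the 3 passed. The ratio of Mdh1 to Mdh2 spanned 2.19 to 2.42 over the controls, 1.86 to 2.53 over MI and 2.39 to 3.01 over HXP, with 5 of 6 HXP libraries above every control.

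**Figure D4:**
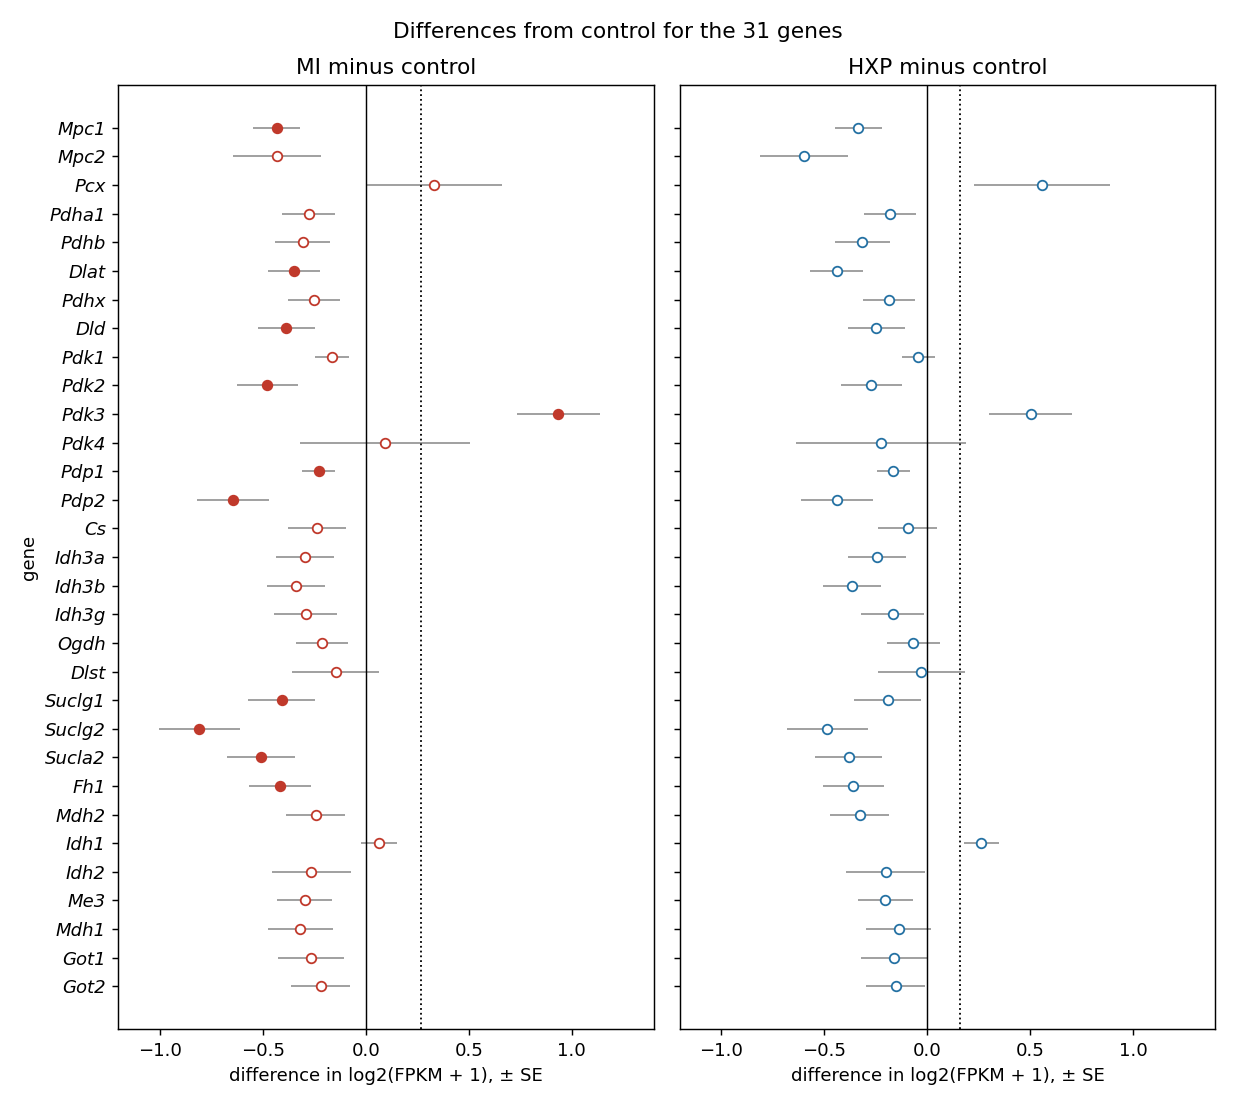
Fitted difference in log2(FPKM + 1) from control for each of the 31 genes (horizontal axes, with SE bars), for MI on the left and HXP on the right. Filled points have an adjusted p below 0.05, the solid line marks 0 and the dotted line the median of all tested genes (0.27 for MI, 0.16 for HXP). The 11 filled points are all in MI, and 29 of 31 points lie left of the dotted line there.

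HXP and MI hearts were not separated by any of the 31 genes. In HXP minus MI, limma called 0 of the 31 and 0 of all 13710 tested genes in either direction, so percent called was 0 for lower and 0 for higher. At an unadjusted p below 0.05 there were 2 of the 31 (Idh1 and Pdk3) and 1891 of all genes, and the smallest adjusted p over all genes was 0.102. The count model voom, run on the recovered reads, also called 0 of the 31 and 0 of all genes. In no gene of the 31 did the groups separate, while 0.306% of all genes had every HXP library below every MI library and 0.117% the reverse. Fitted differences were above 0 for 24 of the 31, with a median of 0.10 beside -0.12 for all genes. Without HXP 5 and HXP 6, 18 of the 31 were below 0.

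By p, the first 6 genes of HXP minus MI had differences that stayed short of the threshold. Idh1 differed by 0.20 (SE 0.09, adjusted p = 0.334), with 4 of 6 HXP libraries above every MI library. Pdk3 differed by -0.43 (SE 0.20, adjusted p = 0.360), with HXP 4, HXP 5 and HXP 6 below every MI library. For Suclg2 the difference was 0.32 (SE 0.20, adjusted p = 0.442) and for Suclg1 0.22 (SE 0.16, adjusted p = 0.511). For Pdk2 it was 0.21 (SE 0.15, adjusted p = 0.4996) and for Pdk1 0.12 (SE 0.08, adjusted p = 0.472).

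In HXP hearts no gene of the 31 passed against control, and this comparison shares its 6 control libraries with that of MI. In HXP minus control limma called 0 of the 31, with 12 at an unadjusted p below 0.05 (4541 of all 13710 genes) and a smallest adjusted p of 0.0881, where 0.219% of all tested genes were called lower and 0.0948% higher. Voom also called 0 of the 31. Groups separated in none of the 31, beside 0.569% of all genes with every HXP library below every control and 1.13% above. The median of the 31 was -0.20 beside 0.16 for all genes, and 28 were below 0.

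The smallest p values were those of Dlat (difference -0.44, SE 0.13, adjusted p = 0.0881), Idh1 (0.26, SE 0.09, 0.0931) and Mpc1 (-0.34, SE 0.11, 0.0963). Mpc2 followed at -0.60 (SE 0.21, adjusted p = 0.101), and HXP 2 to 5 were the 4 libraries lower than all controls. Idh3b differed by -0.36 (SE 0.14, adjusted p = 0.109) and Pdp2 by -0.44 (SE 0.17, adjusted p = 0.114). This comparison turned on HXP 6. Without that library 6 of the 31 were called lower (Mpc1, Mpc2, Dlat, Pdp2, Sucla2 and Fh1) and 2 higher (Pdk3 and Idh1), beside 2.78% of all tested genes lower and 28.1% higher. Without both HXP 5 and HXP 6, the libraries with the globin mismatch, 9 were called lower and 3 higher, beside 2.65% and 40.9% of all tested genes. The summed matrix markers of HXP 6 were the lowest of all 18 libraries, at 135 FPKM beside 179 FPKM in the lowest control.

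Levels of the 31 genes varied widely between libraries of a group. MI 5 was the lowest MI library in 21 of the 31 genes and MI 6 the highest in 22. HXP 3 was the lowest HXP library in 25, and HXP 1 and HXP 6 were the highest in 12 each. The number of the 31 below every control library was 27 in MI 2 and MI 5, 26 in MI 1, 24 in MI 3, 15 in MI 4 and 7 in MI 6. It was 28 in HXP 3, 26 in HXP 2, 17 in HXP 5, 16 in HXP 4, 7 in HXP 6 and 4 in HXP 1. Over all tested genes that share was 6.59% to 12.2% per MI library and 3.92% to 40.8% per HXP library, the highest in HXP 6.

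The mean log2(FPKM + 1) of the 31 genes spanned 5.81 to 5.98 over the controls, 5.39 to 5.91 over MI and 5.31 to 6.00 over HXP. MI 5 and HXP 3, with the lowest means of their groups, also had the lowest cardiomyocyte means (8.60 and 8.48) and the highest matrix means (7.90 and 7.82). HXP 1 broke that order, with the highest mean of the 31 genes among all libraries, the highest cardiomyocyte mean (9.22) and a matrix mean of 6.38, above every control. Reads counted as mitochondrial came from 22 genes, of which 15 lie on the mitochondrial chromosome. Whether the others are nuclear copies of mitochondrial genes was not tested. Together the 22 genes made up 36.4% to 42.6% of reads in control libraries. Their share was 20.4% to 33.2% among MI libraries and 20.6% to 45.5% among HXP libraries. The part of tissue makeup in the level of the 31 genes was not tested beyond the cardiomyocyte scaling above.

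**Figure D5:**
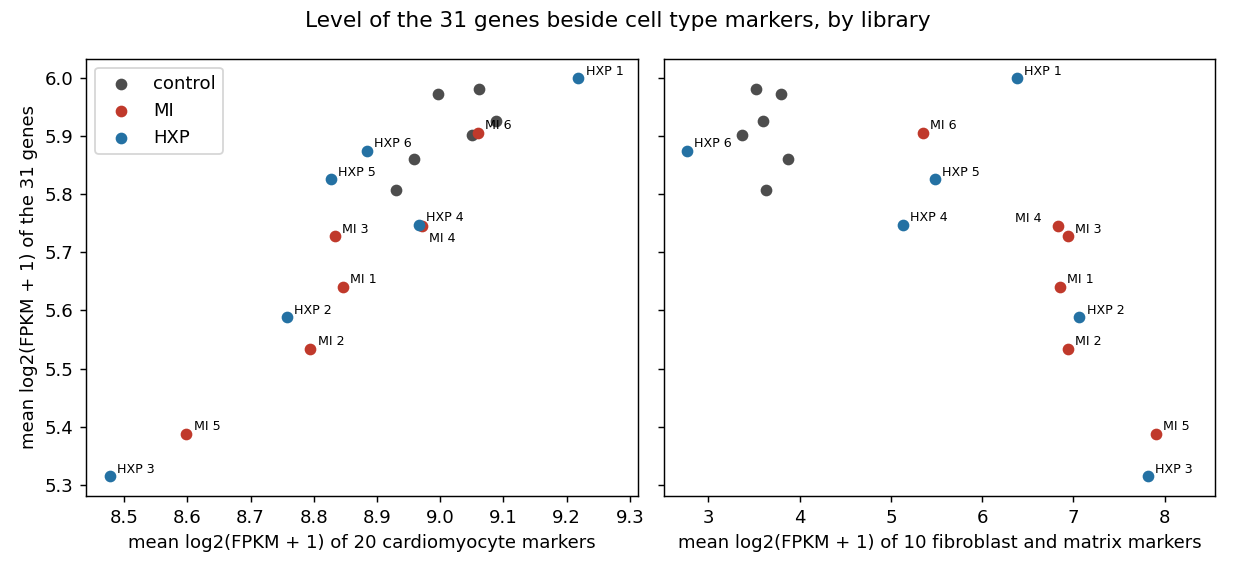
Mean log2(FPKM + 1) of the 31 genes (vertical axes) against that of 20 cardiomyocyte markers (left) and 10 fibroblast and matrix markers (right), with 1 point per library (grey control, red MI, blue HXP). Libraries low in the 31 genes, MI 5 and HXP 3, are low in cardiomyocyte markers and high in matrix markers, and HXP 1 is above every control in all 3 measures.

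Among 33 other genes of TCA and pyruvate metabolism, all tested, 5 fell and 6 rose in MI, and 0 were called in either HXP comparison. The 5 that fell were the alanine transaminases Gpt2 (5.68 ± 0.688 FPKM in control, 4.05 ± 0.740 in MI, adjusted p = 0.0146) and Gpt (8.62 ± 1.06 and 5.33 ± 1.199, adjusted p = 0.0200), the succinate dehydrogenase subunit Sdhc (108 ± 6.51 and 81.5 ± 15.8, adjusted p = 0.0394), the heart-type lactate dehydrogenase Ldhb (693 ± 39.1 and 505 ± 96.7, adjusted p = 0.0461) and the aspartate-glutamate carrier Slc25a13 (41.9 ± 1.84 and 33.1 ± 6.03, adjusted p = 0.0470). Those that rose included Ldha, the muscle-type lactate dehydrogenase (130.3 ± 9.60 FPKM in control, 161 ± 12.4 in MI, adjusted p = 0.0219), Acly, the ATP citrate lyase that makes cytosolic acetyl-CoA (6.91 ± 0.740 and 13.7 ± 2.51, adjusted p = 0.0252), Pck2 and Me2 (adjusted p = 0.0277 and 0.0282). The remaining 3 subunits of succinate dehydrogenase, Sdha, Sdhb and Sdhd, had differences below 0 with adjusted p of 0.0674, 0.0669 and 0.0756.

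Of 14 regulators and targets of the PPAR and estrogen-related receptors, which drive oxidative genes in heart, 3 fell and 3 rose in MI. The receptor Esrrg fell from 7.52 ± 0.541 to 5.62 ± 0.831 FPKM (adjusted p = 0.0184), the muscle carnitine palmitoyltransferase Cpt1b from 143 ± 12.5 to 111 ± 14.1 (adjusted p = 0.0266). Cpt1a, its liver-type relative, rose from 11.7 ± 2.47 to 16.9 ± 3.54 (adjusted p = 0.0307) and the lipid droplet coat Plin2 from 11.7 ± 1.32 to 15.4 ± 2.82 (adjusted p = 0.0388). Limma called 0 of the 14 in HXP minus MI and 0 in HXP minus control. The receptor Esrra, at 44.9 to 52.1 FPKM in control, was at 9.73 and 5.79 in HXP 5 and HXP 6 and at 21.2 to 43.7 in the other HXP libraries, a level named after its values were seen.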

How the data were processed

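The authors deposited 1 value per gene and library, without a named unit in the file headers. The deposited values are taken as FPKM from their steps: value times merged exon length (GENCODE M21, GRCm38) fell on whole reads, within 0.1 read, for 97.8% to 98.1% of the values checked per library. Of the IDs, 34097 matched that annotation and 53 did not. Per the submitters' processing notes, GRCm38 and limma were used, with no role or version. For the aligner, the counter and their annotation: not given in the sources used here. Per the labels' protocols, RNA was extracted with Trizol, depleted of ribosomal RNA and made into NEBNext libraries.

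Here genes averaging at least 0.5 FPKM (13710) were tested on log2(FPKM + 1) by limma 3.58.1 under R 4.3.3, as 1 model with 3 groups of 6 libraries (trend on, robust prior off). Tests were two-sided, with Benjamini-Hochberg adjustment over all 13710 genes and a threshold of 0.05. Differences are on the log2(FPKM + 1) scale and understate changes of low genes. Precision is set by the 6 libraries of a group, since depth was 75.8 to 81.1 M reads. Counting intervals were not needed at that depth.

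The members and lists were chosen with earlier results of these data known. Lowest, median and highest values are given for the 6 members with the smallest p in each comparison and for Cs, Pdha1 and Pdk1 to Pdk4, and group means or ranges for the rest. Of the other lists, called genes are named, up to 5 with the smallest p per direction or comparison. Some of the genes this rule picks are not reported here. Settings tried instead covered scaling, filter, pseudocount, prior, groups in the fit, replicate block, run of library numbers, voom on recovered reads and libraries left out. A correction for GC content (lowess span 0.3) was chosen after seeing the data. The fit was tested on simulated data. The main results use all 18 libraries. Figures were drawn with matplotlib 3.10.9.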

Additional observations from a re-analysis of the deposited data

Results flagged for a closer look

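In 6 of 93 combinations of gene and group, 1 library lay apart from its group of 6 by the Dixon ratio (gap over range on the log2 scale, 95% critical value for 6), where chance gives about 1 in 20. Mpc1 was low in control 5 (25.1 FPKM, the other controls 31.1 to 34.7) and in HXP 3 (20.1, others 24.8 to 27.8). Mpc2 was high in MI 3 at 22.6 FPKM beside 9.74 to 11.47. In control 2 Idh3g was high, at 96.7 FPKM beside 76.0 to 81.6. In control 1 both Suclg2 (27.4 FPKM beside 29.9 to 30.8) and Me3 (3.59 beside 4.33 to 4.73) were low. Dlst in HXP 5 (45.7 FPKM) stayed short of the critical value on the log2 scale.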

How the results depend on the processing

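Leaving out 1 library at a time gave 3 to 15 of the 31 genes lower and 1 higher in MI minus control, and 0 to 6 lower and 0 to 2 higher in HXP minus control. In MI minus control the number lower (beside the share of all genes called lower, 3.21% in the main result) was 16 with quantile normalization (17.3%), 23 with median-ratio scaling (15.1%), 17 with scaling to non-mitochondrial reads (9.36%), 18 with only the compared groups in the fit (5.5%), 20 with the GC correction (14.3%) and 22 with the GC correction and the replicate block (14.5%). It was 4 with scaling to cardiomyocyte markers (1.32%), 4 without a filter (0.685%), 5 with MI 1 and MI 2 averaged (1.93%), 0 in the last run of library numbers and 0 without MI 4 and MI 5. The number higher was 0 in those last settings and 0 with a mean of at least 5 FPKM, where Pdk3 was not tested. Deviations of same-numbered libraries correlated at -0.31 to 0.63. Differently numbered libraries were not compared, so whether replicate numbers pair the libraries was not tested. The replicate block gave 7 lower and 1 higher. Run as a covariate gave 7 and 1. Voom called 10 and 1 of the 31, and 446 lower and 5252 higher genes in all. In HXP minus control, 9 were lower and 3 higher without HXP 5 and HXP 6, 6 and 2 without HXP 6, 1 lower with the GC correction and 2 with the GC correction and the replicate block. HXP minus MI had 0 calls among the 31 in every setting, with its median of members minus all genes at 0.21, and -0.012 without HXP 5 and HXP 6. Idh1 in MI minus control turned from 0.06 to -0.29 with median-ratio scaling. In 101 other cases an uncalled difference changed sign. MI 1 and MI 2 were the most alike pair (median chi-square 2.69, where sampling alone gives 0.455), and were kept as separate libraries. Where no cause is named, the cause was not tested. Quantile normalization, median ratios and GC correction bring the median of all genes in MI minus control from 0.27 to -0.07, 0.0029 and 0.00076.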

Other observations

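Nnt, the mitochondrial transhydrogenase that couples the proton gradient to NADPH, is a list gene whose levels fell into 2 ranges in every group. It was at 2.02 to 5.35 FPKM in control 1 to 3, MI 1, MI 2, MI 5, HXP 1, HXP 2, HXP 5 and HXP 6, at 61.4 to 106 in control 4 to 6, MI 3, MI 4, MI 6 and HXP 4, and at 43.8 in HXP 3. C57BL/6J mice are known to carry a deletion in Nnt, and the strain is not given here. The low and high libraries for the ratio of Suclg2 to Sucla2 were spread over both Nnt ranges (MI 2 and MI 4, both at a low ratio, had 2.68 and 61.4 FPKM of Nnt).

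Ucp3, a target of the PPAR receptors named after its values were seen, was at 28.5 FPKM in control 5, 24.1 in MI 6 and 21.1 in control 3, and at 2.82 in HXP 3. For Pdk4 the same libraries stood at 100.4, 147, 81.6 and 20.48 FPKM. Other libraries did not keep that order: Pdk4 was at 90.4 FPKM in HXP 5 and 114 in MI 3, where Ucp3 was at 8.78 and 16.6. A relation between the levels of these genes was not tested.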
